A study of Arabidopsis thaliana with 4 samples.

Results

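The difference between Dox and control plants that was common to treated and untreated leaves of Arabidopsis thaliana was measured by RNA sequencing. An additive model with leaf position and treatment was fitted to all 12 deposited columns of counts, and its treatment term set the 6 Dox columns against the 6 control columns with position held fixed. Each of 32982 genes was counted, and 19403 with enough counts were tested. The 4 groups of 3 columns were water-treated leaves of control plants (control local), their systemic leaves (control systemic), leaves treated with Dox at 25 μm/g as the labels write it (Dox local), and the systemic leaves of those Dox plants (Dox systemic). For systemic leaves the labels' treatment entry is NA. All plants were raised on agar with Murashige and Skoog medium and sucrose in long days. The labels give no strain, mutant allele or plant age, and do not spell out Dox, which the series title presents as a mitochondrial stress. Neither the hour of harvest nor its interval from treatment is given in the sources used. Whether the 3 columns of a group stand for separate plants is stated nowhere, so that all p-values rest on the spread among libraries, which could be technical.

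Stressed plant mitochondria alter the expression of nuclear genes, a route called retrograde signalling, and the alternative oxidase gene AOX1A is its usual marker. Cytokinin, a hormone of shoot growth and leaf ageing, is sensed by histidine kinases and passes phosphate to response regulators. The type A regulators among them are switched on quickly by the hormone and dampen its action. Genes induced by darkness or sugar shortage, and genes for the proteins that hold chlorophyll, report on light and carbon supply and also follow the circadian clock.

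Library totals lay between 18981328 and 21380652 counts, so depth was even. Levels are given as CPM, the usual unit of counts scaled to library size, here with TMM factors, except that the marker values in this paragraph are scaled to total counts alone. Libraries within a group spread well past counting noise, and chi-square divided by its degrees of freedom had a median over genes of 9.20 to 20.07. The first principal component took 41.5% of the variance and did not part the treatments, since control local library 3 (62.2) and Dox local library 1 (63.8) lay together at its end. The second took 15% and nearly parted them, with controls at -6.06 to 39.4 and Dox libraries at -44.3 to -2.46. Only control systemic library 3 (-6.06) lay inside the Dox range there. The leaf markers RBCS1A (6830 to 12100 CPM), RCA (2960 to 6450 CPM), CAB1 (3470 to 13100 CPM) and LHCB3 (176 to 1390 CPM) were present in every library. All 8 root markers were under 1 CPM in every library, and 5 of them at 0 throughout, and all 5 shoot apex markers were under 1 CPM. The 6 vascular markers summed to 116 to 246 CPM and the 9 stomatal markers to 52.9 to 171 CPM. The 7 flower markers summed to 1.34 to 4.56 CPM in control local, 2.79 to 5.97 CPM in control systemic, 1.80 to 13 CPM in Dox local and 5.12 to 26.2 CPM in Dox systemic libraries. Of these 7, 4 were under 1 CPM in every library. In such bulk tissue, fewer cells of a type and less RNA per cell cannot be told apart.

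A small set of genes called by 1 of the tools used differed with Dox in the same direction at both leaf positions, among them the cytokinin response regulator ARR16, which was higher, and a leucine-rich repeat gene and the floral repressor FLC, which were lower. Across all genes, the Dox difference in local leaves bore little relation to that in systemic leaves. The quasi-likelihood test of edgeR called 0 of 19403 genes (0%) at an adjusted p under 0.05, with 0.399 as the smallest. Unadjusted, p was under 0.05 for 1608 genes (8.29%), of which 783 were higher with Dox (4.04%) and 825 lower (4.25%). DESeq2 called 117 of 19372 genes at an adjusted p under 0.05 (0.604%), 54 higher (0.279%) and 63 lower (0.325%), while limma voom called 0. In the text below, "called" refers to DESeq2, and other differences are given as values alone. No gene, called or not, passed the main test, which is that of edgeR. These shares, with 51.4% of all genes tested higher, are the background for the list counts below. All lists and their members were chosen with earlier results of these data known, so their counts are descriptions and not independent tests.

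All 117 called genes had the same sign in local and in systemic leaves, and each had an edgeR p under 0.05. The treatment term averages over both positions and so favours genes of equal sign, and this agreement follows in large part from how they were chosen. Their median absolute log2 fold change was 0.73 in local and 0.99 in systemic leaves, and 84 of 117 had the larger difference in systemic leaves. The 3 Dox libraries lay apart from the 3 controls at both positions for 70 of them, and all 6 Dox libraries lay apart from all 6 controls for 36, against 69 of all genes tested (0.356%). Over all genes tested, 103 were higher without overlap at both positions (0.531%), 82 were lower (0.423%), and 67 went in opposite directions (0.345%). Scaled by total counts, 57 were higher and 90 lower, so that which direction held more genes turned with the scaling. Of those 69 genes, 33 were higher (0.17%) and 36 lower (0.186%) in every Dox library than in any control. Across the 19403 genes, which are not independent replicates, local and systemic log2 fold changes had a Pearson r of 0.09 and a Spearman rho of 0.05, and 50.9% of genes had the same sign. These values come from libraries that the positions do not share. Deviations of same-numbered control libraries from their group means nevertheless correlated between positions (0.318, 0.492 and 0.779). The local and systemic differences are therefore not known to be independent.

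**Figure D1:**
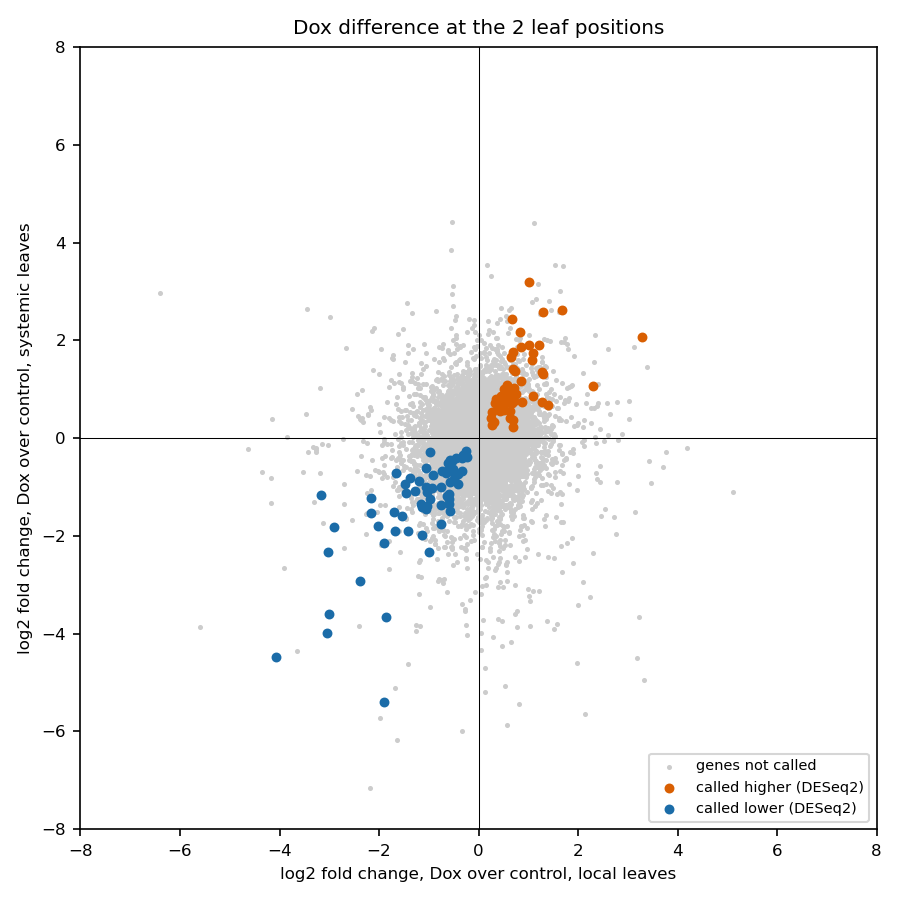
The log2 fold change of Dox over control in local leaves (x axis) is plotted against that in systemic leaves (y axis), with 1 point for each gene tested. Genes called by DESeq2 for the treatment term (orange, 54 higher; blue, 63 lower) lie in the quadrants of equal sign, and all points together have a Pearson r of 0.09.

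ARR16 (AT2G40670), a type A cytokinin response regulator, had the smallest p of the higher genes with a mean of at least 5 CPM in some group. It stood at 3.58, 3.63 and 4.87 CPM in control local and 3.38, 10.4 and 7.86 CPM in control systemic libraries. With Dox it stood at 5.0, 21.2 and 12.2 CPM in local and 45.5, 32.2 and 56.4 CPM in systemic libraries. The Dox libraries lay above the controls of their own position, narrowly so for Dox local library 1, and the systemic groups lay farthest apart. With Dox it was 4.48-fold higher (log2 2.16, SE 0.37), with an edgeR p of 7.26e-05 and a DESeq2 adjusted p of 7.91e-05.

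AT2G15880, a gene for a leucine-rich repeat protein, had the smallest p of the lower genes with a mean of at least 5 CPM in some group. AT3G20370, at less than 1 CPM in every library, had a smaller one (3.40e-05). AT2G15880 was at 73.8, 53.1 and 44.3 CPM in control local and 79.9, 58.1 and 57.4 CPM in control systemic libraries, against 18.6, 27.0 and 15.4 CPM in Dox local and 45.3, 25.9 and 30.6 CPM in Dox systemic libraries. At each position every Dox library lay below every control, and the difference was the larger in local leaves (log2 -1.49 against -0.94 in systemic leaves). The treatment term of AT2G15880 was -1.21 (SE 0.21), with an edgeR p of 7.27e-05 and a DESeq2 adjusted p of 0.000244.

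FLC (AT5G10140) encodes a MADS-box protein that delays flowering. Control libraries held 15, 11.6 and 13 CPM in local and 9.95, 6.70 and 6.57 CPM in systemic leaves, and Dox libraries 3.98, 6.03 and 7.28 CPM in local and 3.47, 4.82 and 4.31 CPM in systemic leaves. At each position the Dox libraries lay below the controls, although Dox local library 3 was higher than the lower controls of systemic leaves. Its log2 fold change was -1.04 (SE 0.19), with an edgeR p of 0.000105 and a DESeq2 adjusted p of 0.00053.

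The promoters of these 3 genes, which had the smallest p-values among the genes named by rule, show what sequence lies before them. Each is the stretch from 250 bases before to 50 bases after the start of the gene in RefSeq, read 5′ to 3′ on the gene's strand in the TAIR10.1 build. ARR16 is at chr2:16969423-16969722 on the plus strand, AT2G15880 at chr2:6920270-6920569 on the minus strand and FLC at chr5:3179399-3179698 on the minus strand. Capitals mark matches to 7 motifs searched on both strands.
ARR16: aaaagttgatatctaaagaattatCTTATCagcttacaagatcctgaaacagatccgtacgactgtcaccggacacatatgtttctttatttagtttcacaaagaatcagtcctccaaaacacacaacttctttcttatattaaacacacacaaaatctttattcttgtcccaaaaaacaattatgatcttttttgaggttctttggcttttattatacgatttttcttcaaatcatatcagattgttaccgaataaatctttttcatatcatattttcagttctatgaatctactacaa
AT2G15880: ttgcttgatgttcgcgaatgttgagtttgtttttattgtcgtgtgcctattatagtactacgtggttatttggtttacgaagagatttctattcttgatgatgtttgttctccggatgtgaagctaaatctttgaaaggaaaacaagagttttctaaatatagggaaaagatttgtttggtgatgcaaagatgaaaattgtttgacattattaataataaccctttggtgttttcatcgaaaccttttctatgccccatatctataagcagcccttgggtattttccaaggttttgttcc
FLC: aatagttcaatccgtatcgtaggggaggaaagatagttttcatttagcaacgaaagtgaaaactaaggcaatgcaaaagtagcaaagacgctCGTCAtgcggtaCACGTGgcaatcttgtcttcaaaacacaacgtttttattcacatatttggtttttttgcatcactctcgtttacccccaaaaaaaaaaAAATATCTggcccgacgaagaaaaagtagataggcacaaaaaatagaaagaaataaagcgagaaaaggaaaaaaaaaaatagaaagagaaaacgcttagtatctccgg
In ARR16 the capitals are CTTATC, the I-box GATAAG of light-regulated genes read on the other strand, at position -226 from the gene's start. AT2G15880 held no match. In FLC they are, in order, the TGA core TGACG read on the other strand (-158), the G-box CACGTG (-146) and the evening element AAATATCT (-58), known from clock-regulated genes.

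Among all 27443 nuclear protein-coding promoters of this length, 7.68% held a G-box, 5.65% an evening element, 14.6% an I-box and 23.1% a TGA core. A W-box (TTGACC or TTGACT) was in 32.4%, a heat shock element (GAANNTTC) in 11.6% and a type B response regulator site (AGATTCG or AGATACG) in 5.34%. Some motifs can overlap, as the W-box and TGA core share TGAC. Of the windows of the 12 higher and the 12 lower genes named by rule, 3 and 2 held a TGA core, 2 and 1 an I-box, 1 and 4 a heat shock element, 1 and 3 a W-box, 1 and 1 a G-box, 1 and 1 an evening element, and 0 and 0 a type B site. Over the called genes with a window, a TGA core was in 6 of 52 higher (11.5%) and 22 of 63 lower promoters (34.9%), and a W-box in 12 of 52 (23.1%) and 24 of 63 (38.1%). A type B site was in 5.77% of the higher and 4.76% of the lower, and a G-box in 5.77% and 12.7%. An I-box was in 9.62% and 19%, a heat shock element in 17.3% and 11.1%, and an evening element in 3.85% and 3.17%. These matches describe letters in a window and were not tested.

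The naming rule took the 12 higher and 12 lower nuclear protein-coding genes with the smallest p of the treatment term and at least 5 CPM in a group mean, so their low p-values are how they were chosen. All 24 were called, with adjusted p from 7.91e-05 to 0.0152 for the higher and from 0.000244 to 0.0128 for the lower genes. Of the 12 higher genes, which spanned 1.45-fold to 4.48-fold, 10 had no overlap at both positions and 6 had none over all libraries. Of the 12 lower genes, which spanned 1.35-fold to 3.76-fold, 9 and 5 had none. The difference was larger in systemic leaves for 11 of the 12 higher but 5 of the 12 lower genes.

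WRKY2, a WRKY transcription factor, was tightly grouped. Its control libraries held 11.6, 12.2 and 12.5 CPM in local and 11.2, 10.9 and 14.4 CPM in systemic leaves, and its Dox libraries 16.4, 17.42 and 19.2 CPM in local and 21.1, 16.8 and 24.2 CPM in systemic leaves. No Dox library reached down to a control (log2 0.66, SE 0.12; DESeq2 adjusted p 0.00364).

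AT7SL-1 (AT4G02970), annotated as 7SL RNA, the RNA core of the signal recognition particle, though typed as protein-coding in the RefSeq table, was the 1 higher gene of the rule with the larger difference in local leaves. It was at 8.88, 6.84 and 11.5 CPM in control local and 23.3, 18.3 and 30.03 CPM in Dox local libraries, and at 40.2, 36.2 and 29.8 CPM in control systemic and 47.7, 60.1 and 61.3 CPM in Dox systemic libraries. Systemic leaves held more of it than local leaves with either treatment, and Dox libraries lay above controls at both positions. The log2 fold change was 1.4 in local and 0.67 in systemic leaves, and the test of that difference gave an unadjusted edgeR p of 0.0435 (adjusted 0.832).

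UMAMIT47, a member of a family of amino acid exporters, was at 18.0, 21.1 and 26.3 CPM in control local, 22.5, 44.2 and 50.6 CPM in Dox local, 17.3, 19.7 and 21.0 CPM in control systemic and 45.1, 34.0 and 51.4 CPM in Dox systemic libraries. Dox local library 1 stood within the control range and the other 5 Dox libraries above it (log2 1.01, SE 0.19). Its family members UMAMIT46 (0.87) and UMAMIT41 (0.58), picked after their values were seen, were also called higher. Reads of such similar copies may be divided between them by the counting.

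The other higher genes of the rule were AT3G23450 (log2 1.31, an uncharacterized protein), AT1G73600 (1.56, a methyltransferase), AT5G59050 (0.83, a G patch protein), AT4G33770 (0.77, an inositol phosphate kinase), AT2G20950 (0.66, a phospholipase-like protein), NHL12 (0.66, a relative of the immune protein NDR1), AT3G44020 (0.55, a thylakoid lumen protein) and ACS10 (0.54), which despite its name of ACC synthase is known as an aminotransferase. AT5G59050, AT4G33770, AT2G20950, NHL12 and ACS10 had no overlap between 6 and 6 libraries. AT1G73600 ranged from 16.8 to 65.9 CPM in controls and from 65.3 to 192 CPM with Dox.

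Of the lower genes, J11 (AT4G36040) encodes a small plastid J-domain co-chaperone. Its controls held 179, 134 and 93.3 CPM in local and 319, 195 and 105 CPM in systemic leaves, and its Dox libraries 90.63, 57.4 and 37.4 CPM in local and 36.7, 77.7 and 42.9 CPM in systemic leaves. Every Dox library lay under every control, although control library 3 of each position and Dox local library 1 came close. The log2 fold change was -1.55 (SE 0.34; DESeq2 adjusted p 0.00417). J8, another J-domain gene of plastids picked after its value was seen, was at -1.11 and called lower.

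RLP34, a receptor-like protein gene, was at 80.4, 67.1 and 54.7 CPM in control local, 54.5, 42.1 and 39.6 CPM in Dox local, 93.8, 59.5 and 52.5 CPM in control systemic and 20.3, 32.4 and 20.5 CPM in Dox systemic libraries. The systemic groups lay well apart and the local groups barely so. The log2 fold change was -0.57 in local and -1.49 in systemic leaves, and the difference between them had an unadjusted edgeR p of 0.0309 (adjusted 0.832).

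The rest of the lower genes were AT5G06980 (log2 -1.91, an uncharacterized protein), CKX5 (-1.19), the chitinase gene AT2G43620 (-1.18), EMB975 (-0.70, a repeat protein named for an embryo defect), AT1G80510 (-0.62, an amino acid transporter), AT3G21810 (-0.60, a zinc finger protein), WRKY21 (-0.57) and FRS1 (-0.43), a relative of the phytochrome signalling factor FAR1. FRS1 was grouped closely, with 20.5 to 24.8 CPM over controls and 16.2 to 17.61 CPM over Dox libraries. AT2G43620, EMB975 and AT3G21810 also had no overlap between 6 and 6 libraries.

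**Figure D2:**
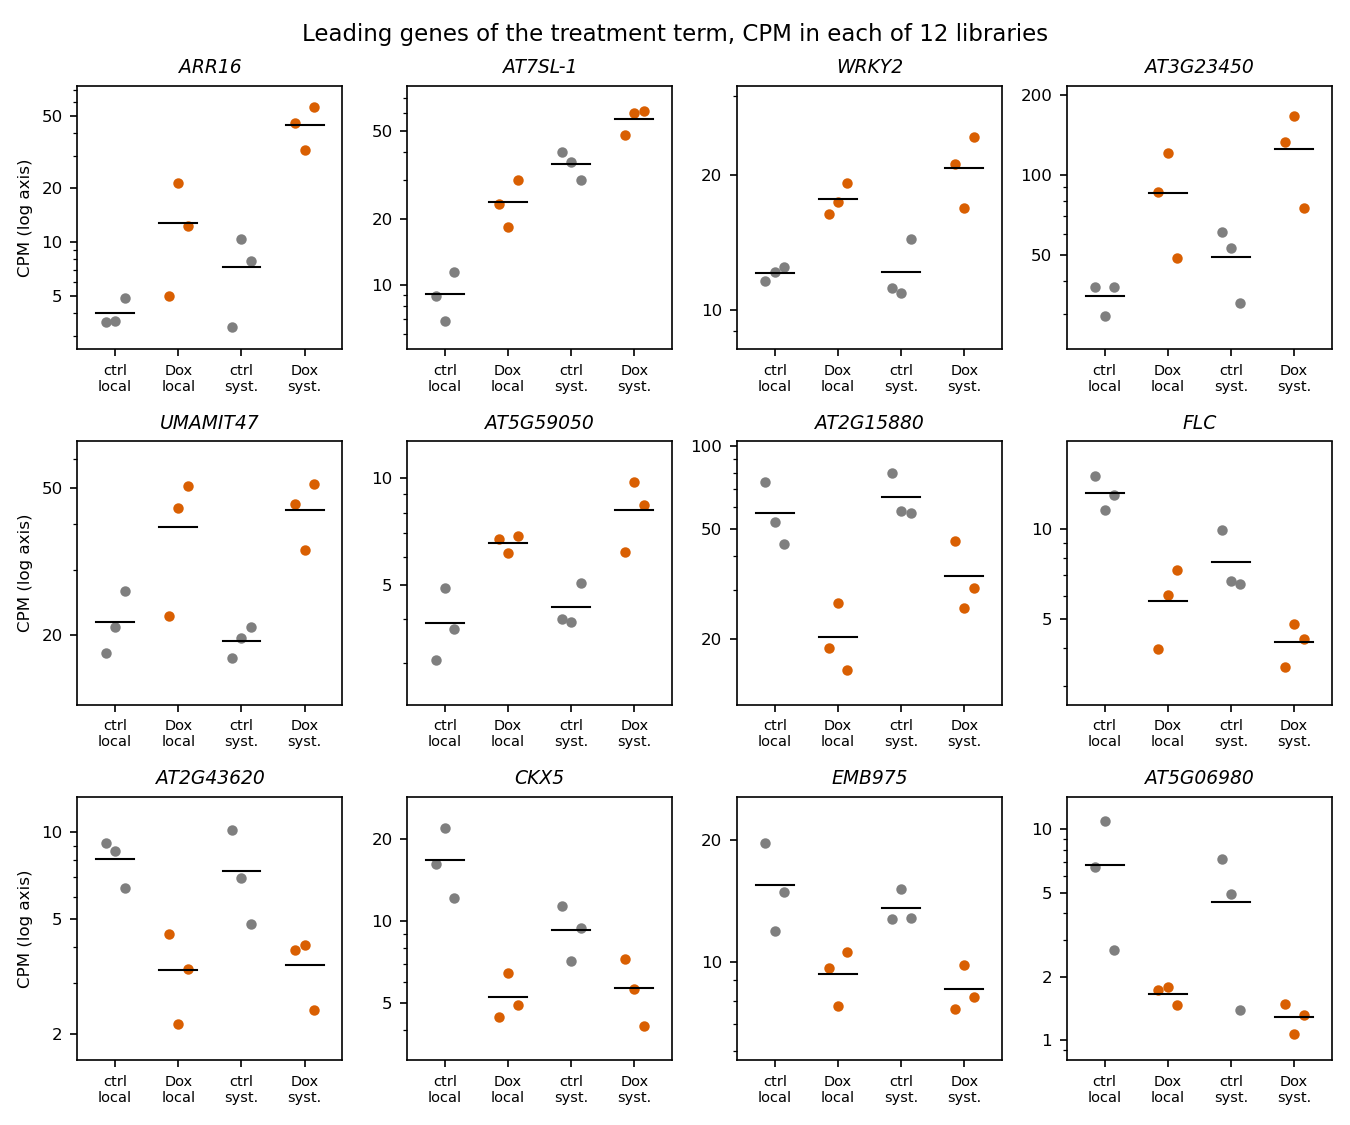
CPM (log axis) of 12 leading genes is shown in each library, with control (ctrl) libraries as grey points, Dox libraries as orange points and the mean of each group of 3 as a black line ("syst." is systemic). The 6 genes from ARR16 to AT5G59050 were higher with Dox and the 6 from AT2G15880 to AT5G06980 lower, and ARR16 in Dox systemic leaves is at 32.2 to 56.4 CPM.

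The type A cytokinin regulators mostly had positive treatment terms, with 1 called. Of 9 type A response regulators tested, of 10 listed, 8 were higher, against 51.4% of all genes tested, and their median log2 fold change was 0.88, against 0.0074 over all genes. The median was 1.17 in local and 0.70 in systemic leaves. An edgeR p under 0.05 was reached by 5 of them, all higher, and ARR16 alone was called. Over all genes tested, 4.04% were higher at such a p and 0.279% were called higher. Of the 9, 1 was higher without overlap at both positions, against 0.531% of all genes tested. ARR5, a primary cytokinin response gene, was at 1.31 (SE 0.51), ARR7 at 0.93 (SE 0.40), ARR4 at 0.41 and ARR15, at 7.13 CPM or less in every library, at 2.32. ARR6 was at 0.88 (SE 0.44), without an edgeR p under 0.05. ARR17 (-0.41) was the 1 member that was lower.

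ARR5 held 3.1, 12.1 and 24.6 CPM in control local, 29.0, 16.0 and 45.3 CPM in Dox local, 6.51, 4.74 and 30.4 CPM in control systemic and 34.3, 33.8 and 44.9 CPM in Dox systemic libraries. The 3 Dox systemic libraries lay above their controls, while the local groups overlapped, with control library 3 the highest control at each position.

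CKX5, a cytokinin oxidase that breaks the hormone down, was called lower. It was at 16.2, 21.9 and 12.2 CPM in control local, 4.46, 6.46 and 4.94 CPM in Dox local, 11.4, 7.18 and 9.41 CPM in control systemic and 7.30, 5.66 and 4.14 CPM in Dox systemic libraries. The local groups lay apart and the systemic groups touched. Its log2 fold change was -1.67 in local and -0.71 in systemic leaves, for a treatment term of -1.19 (SE 0.24; DESeq2 adjusted p 0.00394). The list of cytokinin response factors and oxidases, CKX5 included, shared no direction: 4 of 9 tested, of 13 listed, were higher and the list median was -0.06 (0.0352 without control local library 2).

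A list of 16 receptors, phosphotransfer proteins, type B regulators, synthesis genes and repressors of the cytokinin pathway was added after values were seen. Of its 14 tested members 7 were higher, the median was -0.11, 4 were higher and 3 lower at an edgeR p under 0.05, and WOL was called. WOL, the cytokinin receptor also named AHK4, was at 2.15, 3.58 and 6.35 CPM in control local, 8.62, 7.49 and 13.3 CPM in Dox local, 1.87, 5.70 and 6.36 CPM in control systemic and 15.1, 8.46 and 10.8 CPM in Dox systemic libraries. All 6 Dox libraries lay above all 6 controls (log2 1.29, SE 0.33; DESeq2 adjusted p 0.0305). IPT3, an enzyme of cytokinin synthesis, was at 1.25 (SE 0.46), the type B regulator ARR10 at 0.51 (SE 0.14), and KMD2, which helps to degrade type B regulators, at -1.11 (SE 0.40).

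Genes induced by darkness and sugar shortage were all lower in the treatment term, though not all within each position. All 20 tested members, of 21 listed, had a negative treatment term, while 5 were higher in local and 1 in systemic leaves. The median was -0.40 (-0.32 in local and -0.61 in systemic leaves), 8 had an edgeR p under 0.05 and 1 was called. Over all genes tested, 51.4% were higher, 4.25% were lower at such a p and 0.325% were called lower. The called gene, ASN1, makes asparagine, a nitrogen carrier of carbon-starved leaves. It was at 219, 95.5 and 174 CPM in control local, 75.8, 20.9 and 54.0 CPM in Dox local, 285, 184 and 181 CPM in control systemic and 31.8, 96.1 and 100.4 CPM in Dox systemic libraries. Dox libraries lay below the controls at each position (log2 -1.60, SE 0.35; DESeq2 adjusted p 0.00647).

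SEN1 (AT4G35770), a dark-induced gene, was at -1.14 (SE 0.37), TPS8, of the trehalose phosphate synthase family, at -0.67 (SE 0.20), the energy-stress factor BZIP1 at -0.64 and MCCA, of leucine breakdown, at -0.60. DIN10, a raffinose synthase relative, lay at 1545 to 1900.4 CPM in control local and 1548 to 1819 CPM in Dox local libraries, but at 1969 to 2898 CPM in control systemic and 427 to 1285 CPM in Dox systemic libraries. Its log2 fold change was -0.01 in local and -1.63 in systemic leaves, with an unadjusted edgeR p of 0.00834 for the difference. AT2G20670, a gene of the DUF506 family picked after its value was seen, was at -1.79 and called lower.

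Of 19 light-harvesting protein genes tested, of 20 listed, 16 were lower, 12 of them at an edgeR p under 0.05, and 3 were called lower. Over all genes tested, 51.4% were higher, 4.25% were lower at such a p and 0.325% were called lower. The list median was -0.61, with -0.33 in local and -0.89 in systemic leaves. Of the 19, 0 were lower without overlap at both positions, against 0.423% of all genes tested. CAB2 held 124, 188 and 37.7 CPM in control local, 55.4, 4.51 and 36.2 CPM in Dox local, 489, 269 and 58.4 CPM in control systemic and 24.8, 21.0 and 19.0 CPM in Dox systemic libraries. Control library 3 was the lowest control at each position and fell within the Dox range in local leaves. The log2 fold change of CAB2 was -2.76 (SE 0.69; DESeq2 adjusted p 0.00393), with reads shared uncertainly among the near-identical CAB1, CAB2 and CAB3.

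The light-harvesting genes LHCB2.3 (-1.26, SE 0.29) and LHCB3 (-1.25, SE 0.35) were the others called. LHCB3 stood at 986, 1002 and 537 CPM in control local, 601, 186 and 431 CPM in Dox local, 1372, 964 and 528 CPM in control systemic and 564, 261 and 226 CPM in Dox systemic libraries, so that control library 3 of each position lay within the Dox range. CAB3 (-1.44), LHCB2.2 (-1.49), LHCB2.1 (-1.35) and LHCA4 (-0.83) were lower at an edgeR p under 0.05.

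Other plastid genes did not share a direction between positions. Of 33 tested genes for photosystem, electron transport and Calvin cycle proteins 11 were higher in the treatment term (median -0.17; from -0.257 without Dox local library 1 to -0.0625 without Dox systemic library 3), but 28 were higher in local leaves (0.23) and 1 in systemic leaves (-0.49). All 21 tested nuclear genes for plastid ribosomal proteins were higher in local leaves (0.20; 18 of 21 when scaled by total counts) and all 21 lower in systemic leaves (-0.33), which left a treatment term of -0.07 (0.0162 without Dox systemic library 1). For 18 chlorophyll synthesis genes the medians were -0.07, 0.12 in local leaves (-0.017 when scaled by total counts) and -0.32 in systemic leaves. Of 74 tested plastid-genome transcripts 29 were higher, with medians of -0.06 (0.0651 without control systemic library 1), 0.23 in local and -0.34 in systemic leaves. Scaling by total counts moved the median of all genes to -0.119 in local and 0.113 in systemic leaves, and these small shifts are to be read against that.

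Alpha-expansins, which loosen the walls of growing cells, were mostly higher. Of 11 tested, of 12 listed, 10 were higher, 6 at an edgeR p under 0.05, and EXPA3 and EXPA15 were called, with a list median of 0.51 (0.43 in local and 0.46 in systemic leaves). Over all genes tested, 51.4% were higher, 4.04% were higher at such a p and 0.279% were called higher. EXPA3 was at 3.49, 11.3 and 8.66 CPM in control local, 16.7, 7.17 and 13.5 CPM in Dox local, 6.14, 6.49 and 7.70 CPM in control systemic and 51.1, 15.9 and 43.6 CPM in Dox systemic libraries. The systemic groups lay apart and the local groups overlapped (log2 0.68 in local and 2.44 in systemic leaves; unadjusted edgeR p of the difference 0.0243). EXPA15 was at 1.43 (SE 0.33), EXPA8 at 1.44 (SE 0.58; 0.95 without Dox systemic library 1), EXPA11 at 0.74 and EXPA16 at 0.64. Dox systemic libraries 1 and 3, the highest for EXPA3, were also the highest for the flower marker SEP3 (11.2 and 13.4 CPM, against 2.06 CPM in library 2). SEP1 too was higher in them than in library 2. PI was highest in library 2 (1.89 CPM by total counts, against 0.463 and 0.566 CPM), and 4 of the 7 flower markers stayed under 1 CPM in every library. The part of flower tissue in the expansin values was not tested.

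Other growth genes gave smaller medians. Of 18 Aux/IAA and GH3 auxin response genes 10 were higher (0.21; -0.12 in local and 0.63 in systemic leaves; 0.0121 without Dox systemic library 1), 4 of them at an edgeR p under 0.05, and IAA12 (0.66), an Aux/IAA repressor, was called. The brassinosteroid list had 8 of 9 genes higher (0.19; -0.15 in local and 0.53 in systemic leaves; 0.0186 without Dox systemic library 1), with the signalling factor BES1 at 0.46 (SE 0.16). Of 14 XTH genes, whose enzymes recast xyloglucan in the wall, 5 were higher (-0.29), a median that turned to 0.16 without control systemic library 3. XTH32, outside that list and picked after its value was seen, was called higher at 1.05, as was the cell wall hydrolase GH9C2 at 1.23. Of 16 cell division genes 7 were higher (-0.03; 0.092 without control local library 2).

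Clock genes of the day and evening were lower in 10 of 13 cases, 4 of them at an edgeR p under 0.05 (median -0.25; -0.08 in local and -0.49 in systemic leaves), and PRR7 was called. Over all genes tested, 4.25% were lower at such a p and 0.325% were called lower. PRR7, a clock repressor, was at 86.5, 80.2 and 81.2 CPM in control local, 42.0, 7.93 and 75 CPM in Dox local, 65.3, 43.0 and 52.1 CPM in control systemic and 18.1, 8.60 and 5.33 CPM in Dox systemic libraries. Every Dox library lay below the controls of its position, widely in systemic leaves and by little in Dox local library 3. Its log2 fold change was -1.65 (SE 0.47; DESeq2 adjusted p 0.0415). GI (-1.45, SE 0.59), PRR5 (-1.27, SE 0.40) and LUX (-0.67, SE 0.29), which act in the afternoon and evening, were the other 3. The median of this list ranged from -0.408 without Dox local library 3 to -0.162 without Dox local library 2.

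Among 10 tested morning clock genes, of 12 listed, 7 were higher (0.26). LHY, a morning repressor, had no overlap between 6 and 6 libraries but never exceeded 2 CPM (0 to 0.424 CPM in controls and 0.468 to 1.76 CPM with Dox), and its log2 fold change was 1.89 (SE 0.59, edgeR p 0.00735). LNK2, a light-dependent clock coactivator, was at -0.80 (SE 0.25).

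Of 10 PIF and shade genes 8 were lower (median -0.22; from -0.632 without Dox systemic library 1 to -0.147 without Dox systemic library 3). HB4 (-2.03, SE 0.54), a homeobox gene of shade avoidance, was called lower at no more than 1.77 CPM. HFR1 (-1.72, SE 0.53) and PAR1 (-1.35, SE 0.41), which restrain the shade response, were lower at an edgeR p under 0.05. Control library 3 was the lowest control for both genes at each position, with HFR1 at 2.97 CPM in local and 3.77 CPM in systemic leaves, inside the Dox range. UNE10, a relative of the PIF factors picked after its value was seen, was called higher at 1.16 (SE 0.26).

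The flowering genes beside FLC showed no common direction. In a list of 22 flowering regulators added after values were seen, 10 of 19 tested were higher and the median was 0.02, which turned to -0.00715 when scaled by total counts and to -0.000244 with upper-quartile factors, and to -0.0949 without Dox local library 2. AGL42, a floral activator at no more than 7.38 CPM, was at 2.18 (SE 0.80), AGL24 at 0.48 and MAF5, a relative of FLC, at -0.28. Of the 7 flower organ markers 3 were tested and all were higher: SEP1 (AT5G15800; 2.46, SE 0.77), SEP3 (1.57, SE 0.59) and PI (0.13), the first 2 at an edgeR p under 0.05.

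**Figure D3:**
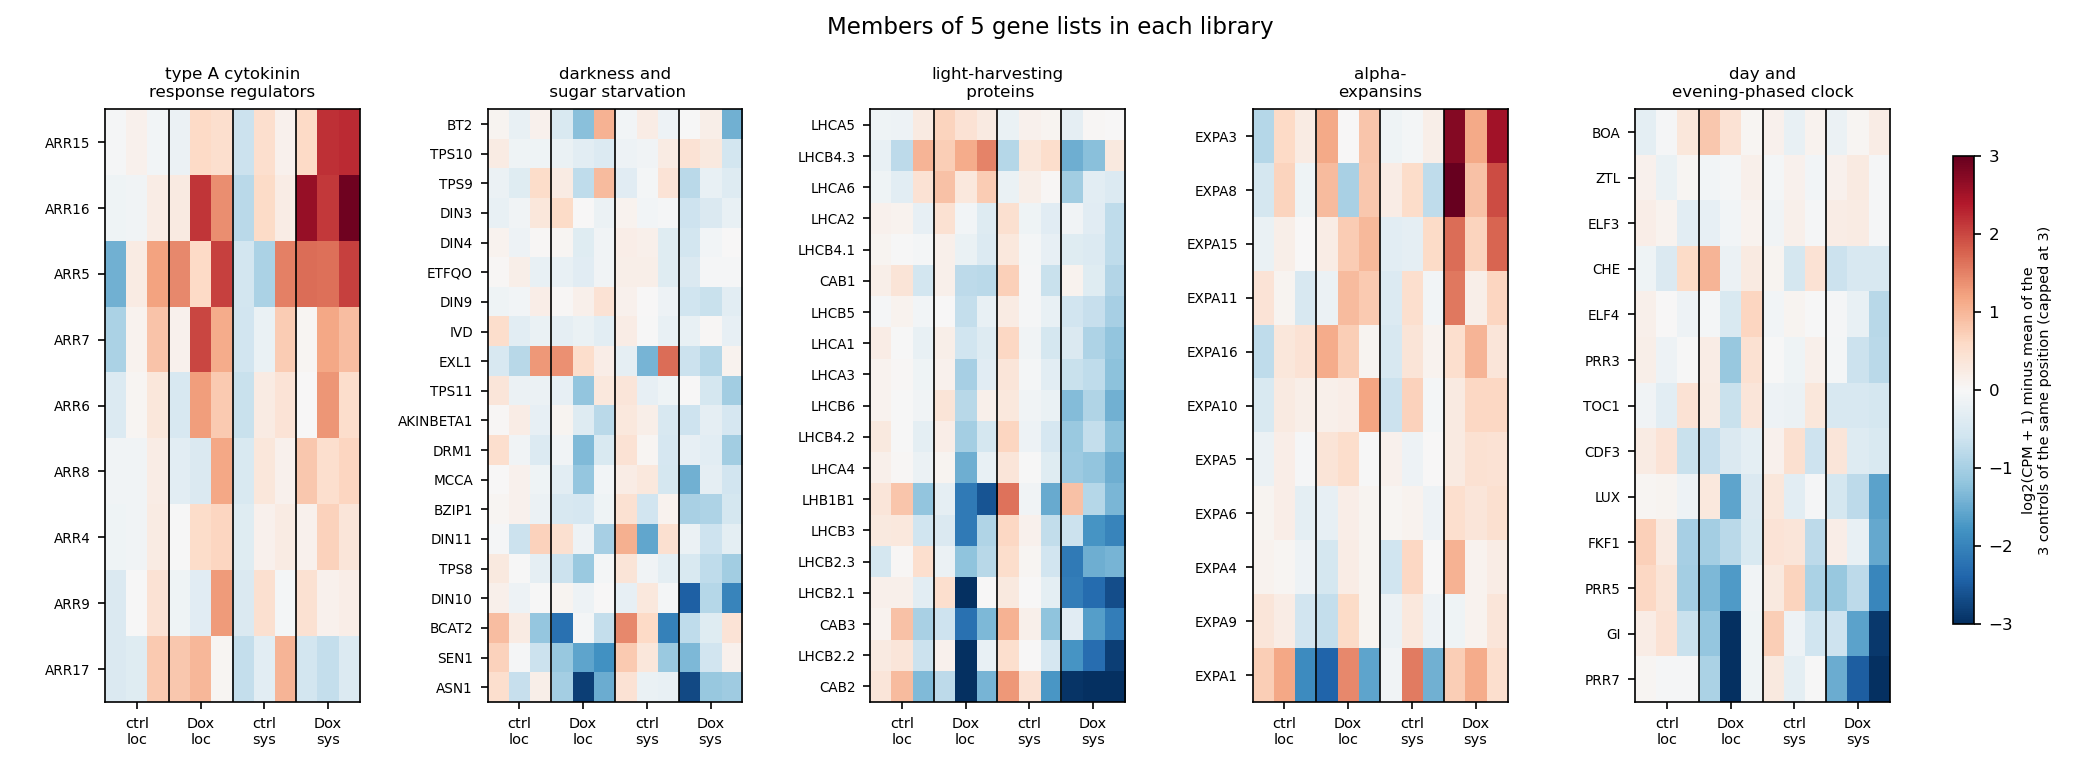
Members of 5 gene lists are shown in each library, coloured by log2(CPM + 1) minus the mean of the 3 controls of the same position, capped at 3 in either direction, with libraries 1, 2 and 3 of each group from left to right (loc is local, sys systemic). Type A regulators and expansins are mostly red with Dox (ARR16 at 32.2 to 56.4 CPM in systemic leaves), while starvation, light-harvesting and evening clock genes are mostly blue with Dox (PRR7 at 5.33 to 18.1 CPM in systemic leaves).

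Mitochondrial stress genes had negative treatment terms for the most part, and none was called. AOX1A held 55.6, 35.5 and 98.7 CPM in control local, 87.7, 57.1 and 55.0 CPM in Dox local, 43.2, 27.2 and 52.9 CPM in control systemic and 24, 34.9 and 33.5 CPM in Dox systemic libraries. The groups overlapped at both positions, with log2 fold changes of 0.07 in local and -0.42 in systemic leaves and a treatment term of -0.17 (SE 0.25, edgeR p 0.514). Of 19 tested genes of the mitochondrial dysfunction list, of 21 listed, 2 were higher and 17 lower, 3 of the latter at an edgeR p under 0.05. Its median was -0.30, and 0.07 in local (-0.062 when scaled by total counts) against -1.11 in systemic leaves.

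Leaving out single libraries moved the median of the mitochondrial dysfunction list from -0.548, without control local library 2, to -0.243. NDB2, an external NADH dehydrogenase that works with the alternative oxidase, was at -0.81 and the glutathione transferase GSTU24 at -1.19 (SE 0.53). AOX1D was at -2.08 (SE 1.20, edgeR p 0.108), at no more than 9.32 CPM, and at -0.915 without control systemic library 1. Mitochondrial chaperones and proteases (5 of 18 higher, median -0.05; 0.0137 without control local library 3) and nuclear genes of the respiratory chain (19 of 24 higher, median 0.07) showed small differences, the largest of the latter being CYTC-2 at 0.25.

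All 63 tested transcripts of the mitochondrial genome, of 152 listed, were lower (median -0.70; -0.45 in local and -1.02 in systemic leaves), and 21 had an edgeR p under 0.05, while 0 were called. Over all genes tested, 51.4% were higher and 4.25% were lower at such a p. When scaled by total counts 3 of 63 were higher. They made up 0.0386, 0.0357 and 0.0972% of counts in control local, 0.0332, 0.0452 and 0.0552% in Dox local, 0.0456, 0.0271 and 0.0468% in control systemic and 0.0168, 0.0286 and 0.0242% in Dox systemic libraries. The groups overlapped at both positions, with control local library 3 the highest of all, and without it the median was -0.452. Libraries made from polyadenylated RNA hold little organelle RNA, and how much of it was retained per library was not tested.

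Endoplasmic reticulum bodies are stores of beta-glucosidases used in defence. Of 6 tested genes for them, of 8 listed, 5 were lower (median -0.96; from -1.29 without Dox local library 3 to -0.457 without control systemic library 1) and PYK10 was called. PYK10, their main beta-glucosidase, was at 239, 184 and 179 CPM in control local, 14.4, 25.7 and 39.9 CPM in Dox local, 77.4, 1.65 and 55.7 CPM in control systemic and 6.80, 23.61 and 7.68 CPM in Dox systemic libraries. The local groups lay far apart, while control systemic library 2 held less than any other library (log2 -2.37, SE 0.66; DESeq2 adjusted p 0.022). NAI2, which organises the bodies, was at -1.33 (SE 0.51) and TSA1 (AT1G52410) at -0.87.

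Defence and detoxification lists had lower medians in systemic than in local leaves, a difference that was not tested. The salicylic and pipecolic acid list had 14 of 22 genes lower (median -0.37; 0.38 in local and -0.77 in systemic leaves), 4 at an edgeR p under 0.05, but its median turned to 0.188 without control systemic library 1. Of 24 tested tau and phi glutathione transferases, of 32 listed, 18 were lower (-0.28; -0.144 without control systemic library 1), and GSTU8 was at -1.95 (SE 0.60). Called genes of this kind, picked after their values were seen, were the salicylic acid receptor NPR4 (-1.06, SE 0.25), the cytochrome P450 CYP81D11 (-1.65), the nitrilase NIT2 (-3.54) and the glycosyltransferases UGT73B4 (-2.65) and AT3G46700 (-3.30). NIT2, UGT73B4 and AT3G46700 stood below 5 CPM in every library. Indole glucosinolate and camalexin genes (2 of 13 higher, median -0.24; -0.0118 without control systemic library 3) and aliphatic glucosinolate genes (6 of 13, -0.04; 0.18 without control systemic library 3) had no called member.

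The heat shock values turned on Dox local library 1. Of 18 tested, of 23 listed, 13 were higher (median 0.32; 1.14 in local and -0.40 in systemic leaves), and the median was -0.129 without Dox local library 1. HSFA2, a heat shock factor, held 116 CPM in that library and at most 3.26 CPM in any other. All 14 touch and rapid stress genes were higher in the treatment term (0.28; from 0.0974 without Dox local library 1 to 0.536 without control systemic library 3). In local leaves 14 were higher (0.41) and in systemic leaves 10 (0.17). ERF5, an ethylene response factor, was at 0.89 (SE 0.26, edgeR p 0.00465).

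The remaining lists, ferritins apart, had medians that were small or moved with single libraries. All 4 ferritins, which store iron, were higher (0.59; 0.42 in local and 0.72 in systemic leaves), with FER3 at 0.69 (SE 0.25). Their median ran from 0.424 without Dox local library 1 to 0.762 without control local library 3, and 0 were called. Scaled by total counts, 3 of the 4 were higher in local leaves. Of 13 iron deficiency genes 5 were higher (-0.20; 0.191 without control systemic library 2). All 5 tested flavonoid genes, of 15 listed, were higher (0.76; 0.209 without Dox local library 3). Endoplasmic reticulum folding genes had medians of -0.21 (from -0.386 without control local library 1 to -0.0441 without control systemic library 3), 0.31 in local and -0.70 in systemic leaves. Medians were 0.08 for 24 jasmonate genes (-0.142 without Dox local library 1) and -0.02 for 24 abscisic acid, cold and dehydration genes (0.185 without control systemic library 3). They were -0.06 for 8 senescence genes, -0.05 for 15 catalases, ascorbate peroxidases and superoxide dismutases (0.0769 without control systemic library 1), and 0.04 for 7 reference genes (-0.0311 without Dox local library 1), of which UBQ10 was at -0.56 (SE 0.24). The medians of the stomatal (8 tested) and vascular markers (5 tested) were 0.13 and 0.14, and 0 root and 0 shoot apex markers were tested.

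**Figure D4:**
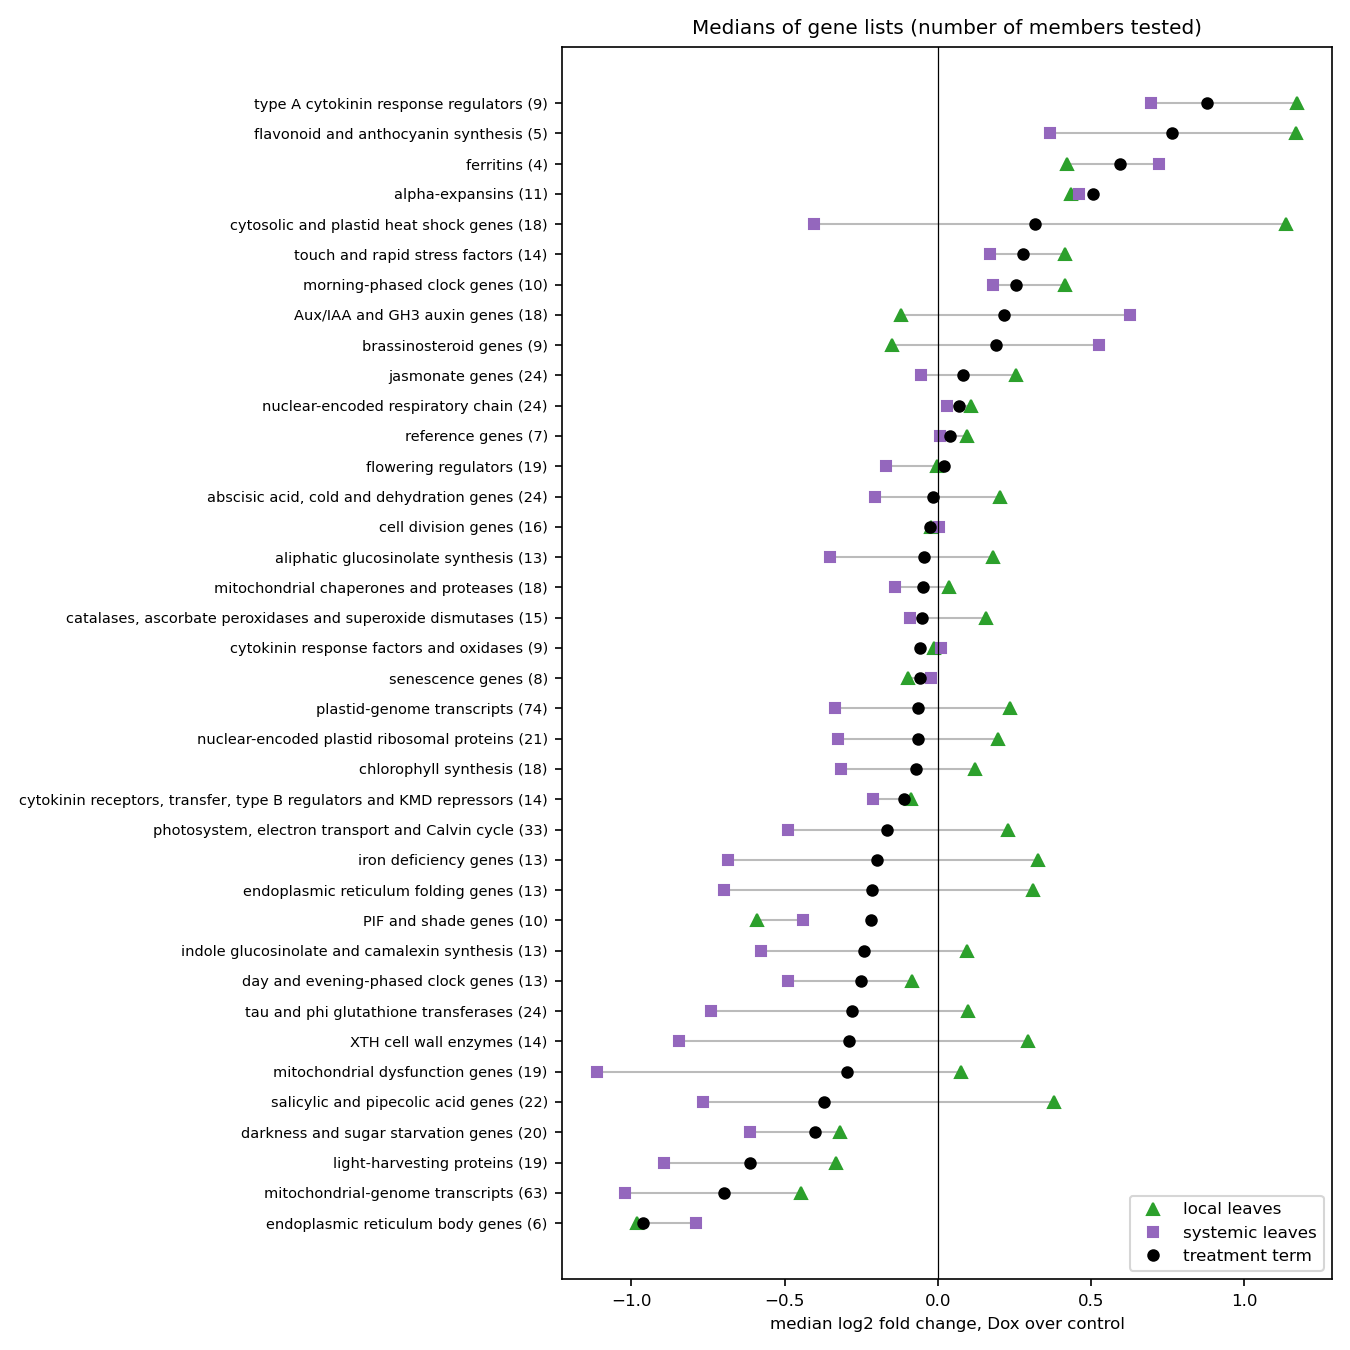
Median log2 fold change of Dox over control is shown for each gene list in local leaves (green triangles), systemic leaves (purple squares) and the treatment term (black circles), with the number of tested members in brackets. Type A regulators (0.88) and alpha-expansins (0.51) are above 0 and starvation genes (-0.40), light-harvesting genes (-0.61) and endoplasmic reticulum body genes (-0.96) below 0 at both positions, while many lists between them cross 0.

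Whether the Dox difference itself differed between positions was tested as an interaction. By edgeR 0 of 19403 genes (0%) passed, the smallest adjusted p was 0.832, and 1008 genes had an unadjusted p under 0.05 (5.2%). DESeq2 called 1 gene, CRK4, a cysteine-rich receptor-like kinase (systemic minus local -1.19, adjusted p 0.0022). A gene such as DIN10 or EXPA3 that was apart in systemic leaves alone was thus not shown to respond differently at the 2 positions.

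How many genes DESeq2 called depended on single libraries. The 117 called genes kept their sign in each of the 12 fits that left out 1 library, but they were chosen for a large difference on all 12 and each fit keeps all but 1 of those libraries. The count was 26 without control local library 1, 30 without control systemic library 1, 39 without Dox systemic library 3, 45 without Dox systemic library 1 and 51 without control systemic library 2. It was 273 without Dox local library 1, 222 without Dox local library 3, 199 without control local library 2 and 191 without control systemic library 3. Of the genes called in these fits, 24 to 101 were among the 117. Without control local library 3 and Dox local library 1, the pair at the end of the first component, 255 genes were called, 91 of them among the 117. In local leaves alone DESeq2 called 15 genes and in systemic leaves alone 326, of which 6 and 41 were among the 117.

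**Figure D5:**
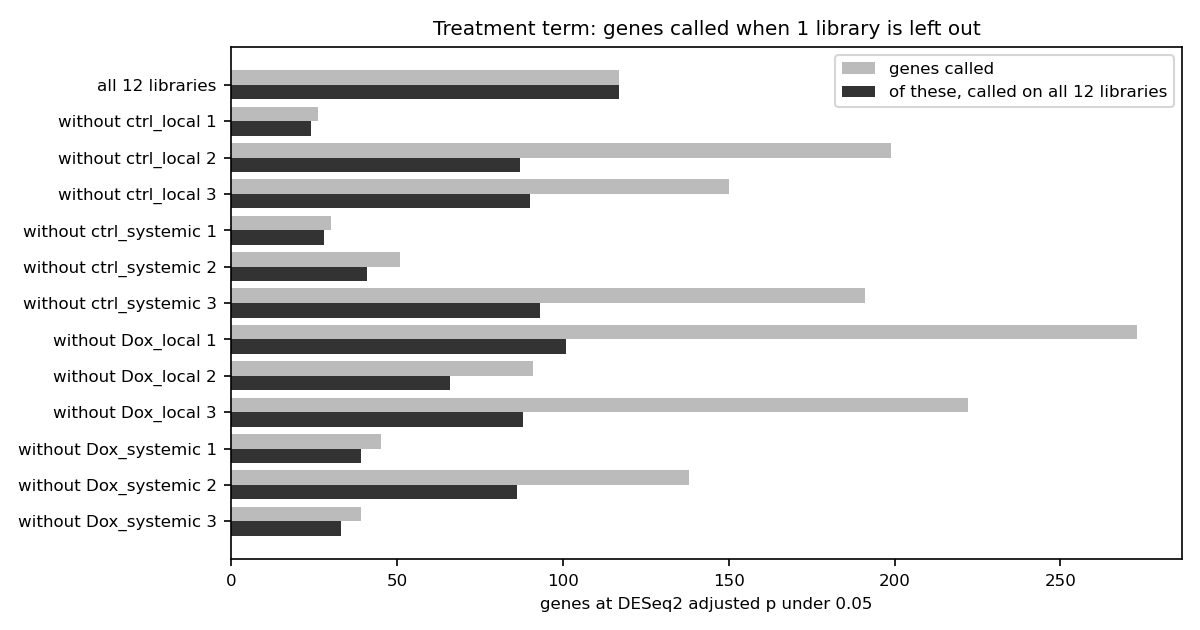
Bars give the number of genes with a DESeq2 adjusted p under 0.05 for the treatment term on all 12 libraries and with each library left out in turn, in grey, and how many of these were among the 117 called on all 12, in black. The count runs from 26 without control local library 1 to 273 without Dox local library 1.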

How the data were processed

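Whole-number counts of reads per gene were deposited by the authors for 12 libraries, 3 for each of 4 samples, without normalization. Per the labels' protocols, libraries were made with TruSeq and SMARTER kits. Per the submitters' processing notes, the tools were featureCounts 1.6.3, HISAT2, DESeq2, FastQC 0.11.9 and Trimmomatic 0.39, with no role given. Genome build, annotation, strand setting and the handling of multi-mapping reads were not given in the sources used here, so overlapping, antisense and near-identical genes may share reads. From these counts, edgeR 4.0.16 (R 4.3.3) kept genes by filterByExpr with a minimum count of 10, scaled by TMM and fitted position and treatment to all libraries. The treatment term was tested by the quasi-likelihood F test with Benjamini-Hochberg adjustment at 0.05, and SE is the absolute log2 fold change over the root of F. Alternatives used DESeq2 1.42.0 and limma 3.58.1, other scalings and filters, and each library left out. The code was tested on simulated data.

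Named were the 12 higher and 12 lower genes typed as nuclear protein-coding with the smallest p and at least 5 CPM in a group mean, up to 4 members per list with the largest change, and AOX1A; other names were picked for the text after values were seen. This holds also for list members beyond those 4. Members and lists were chosen with earlier results of these data known. Promoters were read from RefSeq TAIR10.1 by locus. The sharing of a replicate number was checked by correlating deviations from group means, and the numbers were not used as pairs in the main test, since local and systemic libraries of equal number correlated in controls but not with Dox. Between treatments, libraries of equal number correlated from -0.341 (control local and Dox local library 1) to 0.523 (control systemic and Dox systemic library 3). Libraries of unlike number were not correlated, so these values cannot be credited to the shared number. The main test and DESeq2 took the 12 libraries as separate, so their p-values can be too small where same-numbered libraries of a treatment correlate. Figures used Python 3.11 with matplotlib 3.10.9.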

Additional observations from a re-analysis of the deposited data

How the results depend on the processing

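By edgeR's quasi-likelihood test 0 higher and 0 lower genes were called, and leaving out single libraries gave 0 to 2 higher and 0 lower; the 2, without Dox local library 1, were ARR16 (2.38) and UMAMIT47 (1.15), both at an adjusted p of 0.0469. Without Dox local library 1 and control systemic library 1 together, 1 gene was called higher, ARR16. DESeq2 called 54 higher and 63 lower genes, and edgeR's likelihood ratio test, added after seeing the data, 18 and 27. Leaving out single libraries, DESeq2 called 13 to 124 higher and 13 to 149 lower genes, also an added choice, as were the fits without control local library 3 and Dox local library 1 (116 and 139), in local leaves alone (3 and 12) and in systemic leaves alone (125 and 201). The interaction had 1 gene called by DESeq2. Scaled by total counts, 57 rather than 103 genes were higher without overlap at both positions. AOX1A turned to 0.0573 and AOX1D to 0.087 in local leaves alone, and leaving out single libraries moved AOX1A from -0.327 to 0.00142 (without control local library 3) and HSFA2 from 3.98 to -0.572 (without Dox local library 1). HSFA2 was at -0.39 without that library and control systemic library 1. The cause was not tested, beyond the fewer libraries in these fits. A fit with the replicate number as a block called 0 higher and 0 lower genes (smallest adjusted p 0.178), and same-numbered local and systemic libraries correlated at 0.318, 0.492 and 0.779 in controls but -0.153, -0.0129 and -0.0055 with Dox. With same-numbered local and systemic libraries summed, 0 of 85 genes checked passed an adjusted p of 0.05 by edgeR. The same held in limma voom with a correlation of 0.189 within such pairs. DESeq2 was not run with pairs. At an unadjusted p under 0.05 the split was 783 higher and 825 lower with TMM, and 614 and 763 with total counts, 656 and 930 with upper-quartile factors.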
